A study of Mus musculus with 2 samples.

Results

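The genes described here are 10 that are widely used to mark arteries: the receptors Notch1 and Notch4, the ligands Dll4, Jag1 and Jag2, the targets Hey1 and Hes1, the ephrin Efnb2 and the connexins Gja4 and Gja5. They were chosen by symbol from the 32285 genes counted in single lymph-node endothelial cells, and all 10 were found. Each of 2 droplet libraries mixed 4 pools of mouse cells, told apart by hashtags (antibody-borne oligonucleotides): peripheral and mesenteric nodes of wild-type (WT) mice, and the same nodes of Xbp1-KO mice. All 4 groups had received tamoxifen, the compound that switches on inducible Cre recombinases, and each group had n = 2 pools, 1 per library. The cells had been depleted of CD45-positive cells and sorted as endothelial, per the labels, which name neither the Cre line nor the number or sex of the animals. The p-values below therefore measure the spread between these pools. The 2 pools of a group were of opposite sex by Xist and Ddx3y, as given below. Library, sex and animals are thus mixed in this spread and cannot be told apart.

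Notch receptors are cut at the membrane when a ligand on a neighbouring cell pulls on them, and the freed part enters the nucleus and, with RBPJ, switches on target genes such as Hey1 and Hes1. In growing vessels this pathway favours arterial over venous identity. Efnb2, the membrane ligand of the receptor Ephb4, is a classical arterial mark, and Gja4 (connexin 37) and Gja5 (connexin 40) form the gap junctions that couple arterial endothelial cells.

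Per GENCODE M21 on GRCm38, all 10 are protein-coding genes, and the counts were made against mm10, another name for that build, per the submitters' processing notes. Notch1 lies at chr2:26457903-26516663 on the minus strand and Notch4 at chr17:34564268-34588503 on the plus strand. Of the ligands, Dll4 lies at chr2:119325784-119335962 (plus), Jag1 at chr2:137081456-137116644 (minus) and Jag2 at chr12:112907819-112929776 (minus). Hey1 lies at chr3:8663359-8667256 (minus), Hes1 at chr16:30064384-30067796 (plus) and Efnb2 at chr8:8617434-8661242 (minus). The connexin gene Gja4 lies at chr4:127311421-127314039 (minus) and Gja5 at chr3:96904693-97077416 (plus).

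The 250 bases upstream of the RefSeq start (GRCm38.p6) are printed for the receptor pair and the connexin pair. The genes of each pair part company in lymphatic cells in the values that follow, and the connexins in capillary-like cells too. The windows are chr2:26503823-26504072 (minus strand) for Notch1, chr17:34564045-34564294 (plus) for Notch4, chr4:127314040-127314289 (minus) for Gja4 and chr3:97032152-97032401 (plus) for Gja5. Capitals mark GGAA on either strand (TTCC on the printed one), the core of the sites of ETS-family factors.
Notch1: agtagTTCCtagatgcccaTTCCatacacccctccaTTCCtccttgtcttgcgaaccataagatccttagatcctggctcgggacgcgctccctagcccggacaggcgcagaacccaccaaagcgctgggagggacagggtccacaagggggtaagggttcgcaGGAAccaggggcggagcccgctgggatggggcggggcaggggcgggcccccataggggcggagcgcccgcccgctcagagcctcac
Notch4: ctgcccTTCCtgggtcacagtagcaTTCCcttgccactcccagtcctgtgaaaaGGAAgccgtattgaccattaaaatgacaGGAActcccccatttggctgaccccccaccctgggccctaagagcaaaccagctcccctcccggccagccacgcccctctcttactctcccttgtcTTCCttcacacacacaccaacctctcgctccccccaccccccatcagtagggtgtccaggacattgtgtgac
Gja4: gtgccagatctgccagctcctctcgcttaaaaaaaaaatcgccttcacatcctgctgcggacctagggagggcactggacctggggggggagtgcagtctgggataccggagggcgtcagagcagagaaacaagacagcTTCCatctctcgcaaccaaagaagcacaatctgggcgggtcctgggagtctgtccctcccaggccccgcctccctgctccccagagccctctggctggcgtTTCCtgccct
Gja5: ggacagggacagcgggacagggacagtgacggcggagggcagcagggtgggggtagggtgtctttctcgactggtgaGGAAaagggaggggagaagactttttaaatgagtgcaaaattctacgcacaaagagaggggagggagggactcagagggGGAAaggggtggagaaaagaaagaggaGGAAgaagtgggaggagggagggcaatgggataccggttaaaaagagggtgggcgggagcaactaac
Windows were given for 8 of the 10 genes, all but Hey1 and Hes1. By the GENCODE positions above, the windows of Notch1 and Gja5 lie inside the gene, and that of Notch4 runs past its start. The windows held GGAA 4 times for Notch1, 5 times for Notch4, 2 times for Gja4 and 3 times for Gja5. These letters separate little, since 93.4% of the 32851 upstream stretches of this length hold them on either strand. The core of the RBPJ site, TGGGAA, which contains GGAA, was found on neither strand of any of the 8 windows of 300 bases (the same stretches with the first 50 transcribed bases), against 25.6% of all windows of that length. The E box CACGTG, which HES and HEY proteins bind among others, was also in none of the 8, against 7.15% of all. These matches describe letters in short windows and say nothing of binding.

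After filtering, 9286 cells were used, 6660 from library 1 and 2626 from library 2. The 2 libraries share 3 barcodes, of which 2 were among the cells used. The subsets come from clustering the cells with the 10 genes and the other genes of their pathways kept out, and were named from markers. Arterial-like cells (592, 1 cluster led by Stmn2, Sema3g, Fbln5 and Alpl) carried Sema3g at 695 CPM (counts of a gene scaled to a fixed total of all genes, the usual counts-per-million unit), against 78.0 in capillary-like cells. Capillary-like cells (4128) fell into 5 clusters, venous-like cells (128, led by Vwf, Cytl1 and Selp) into 1, high endothelial-like cells (472, led by Ccl21a and Glycam1) into 1 and lymphatic cells (3710, Prox1 at 738 CPM) into 5. Of the 7 high endothelial markers, Spon2 was near 0 (0.254 CPM). Xist and Ddx3y showed that the sexes were crossed: Xist was detected in 0.115 to 1.77% of the cells of the WT pools of library 1 and the Xbp1-KO pools of library 2, and in 73.2 to 85.4% of the cells of the other 4 pools. Within a library, genotype and sex therefore cannot be told apart, while each group of genotype and tissue held 1 pool of either kind.

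Among the 5 endothelial subsets, all 10 genes had their highest median level in arterial-like cells. Levels are CPM of the summed cells of 1 pool and 1 subset (8 pools per subset, 6 for venous-like cells, where sums under 5 cells were left out), and differences between subsets are a description without a test, since the subsets come from the same cells. The ranges over pools of arterial-like cells and of the next subset did not overlap for Notch1, Dll4, Jag2, Hey1, Hes1 and Gja5, and overlapped for Notch4, Jag1, Gja4 and Efnb2. Hes1 is a narrow case, since its capillary-like pools, with a median just under that of lymphatic pools, did reach into the arterial-like range. Within a pool, arterial-like cells stood above capillary-like cells in 8 of 8 pools for every one of the 10 genes. They stood above lymphatic cells in 8 of 8 pools for 9 of them, and for Jag1 in 5 of 8. In sums of this kind, fewer cells with a transcript and fewer transcripts per cell cannot be told apart, so shares of cells are given where they help.

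**Figure D1:**
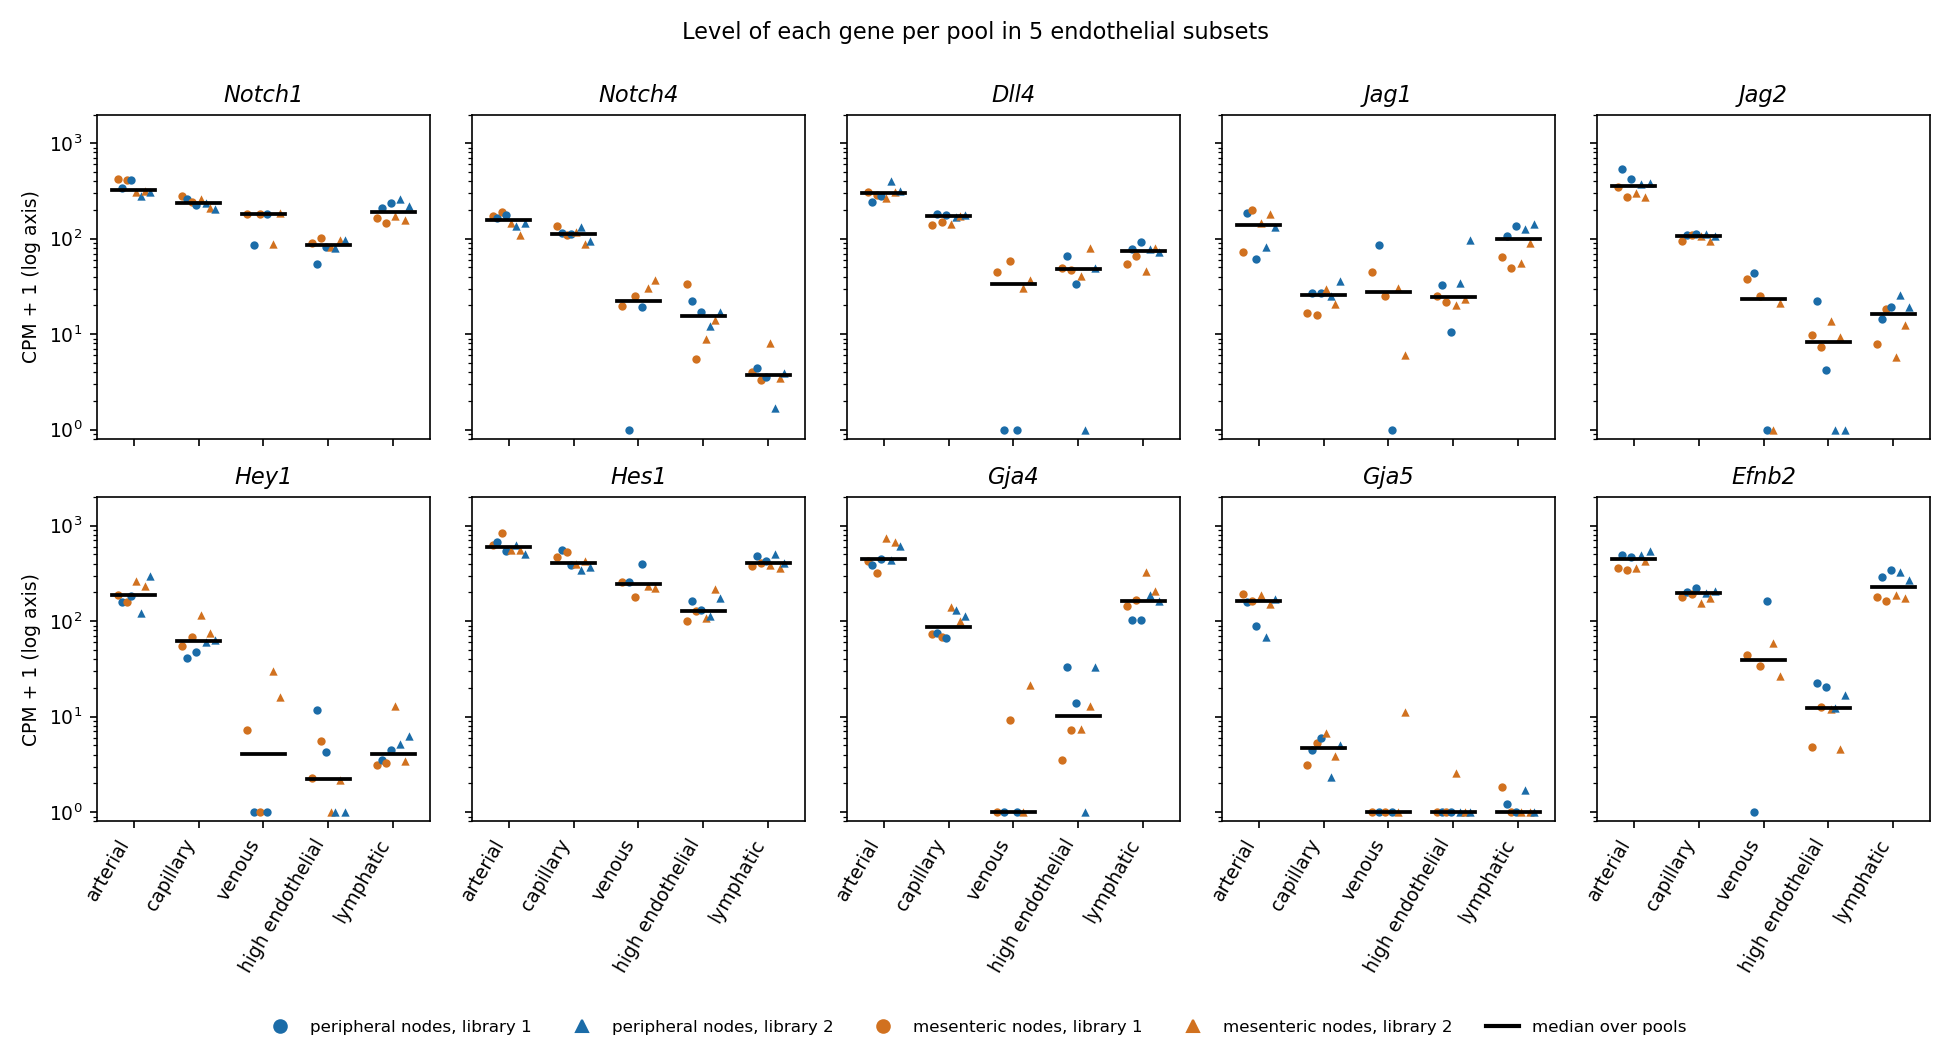
The level of each of the 10 genes (CPM + 1, log axis) in arterial-like, capillary-like, venous-like, high endothelial-like and lymphatic cells, 1 point per pool, coloured by node and shaped by library, with the median as a bar. The arterial-like median is the highest in every panel. Gja5 falls to 3.75 in capillary-like cells and to a median of 0 beyond them. Notch1 and Hes1 have medians of 85.5 and 128 in high endothelial-like cells, the lowest of the 5 subsets for both. The Hes1 level there is not read either way, since most pools lie within the blood-cell interval given below.

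The receptors separated from each other in the lymphatic cells. Notch1, the main Notch receptor of endothelium, ran from 281 over a median of 327 to 418 CPM in arterial-like pools and from 205 over 238 to 278 CPM in capillary-like pools. Lymphatic pools followed at 146, 191 and 257 CPM (lowest, median, highest), venous-like pools at 85.0, 179 and 183 CPM, and high endothelial-like pools came last at 53.5, 85.5 and 99.8 CPM. Only the step from arterial-like to capillary-like cells was without overlap, and each later neighbour in this order overlapped the one before it. Notch4, a receptor largely restricted to endothelium, had 108, 155 and 189 CPM in arterial-like pools and 87.9, 112 and 133 CPM in capillary-like pools, ranges that overlapped although arterial-like cells were higher in 8 of 8 pools (median ratio 1.36). It then dropped to medians of 21.5 CPM in venous-like, 14.5 CPM in high endothelial-like and 2.74 CPM in lymphatic pools, where no pool exceeded 7.12 CPM. Notch1 was thus abundant and Notch4 nearly absent in the same lymphatic cells. Of 3605 lymphatic cells thinned to 2000 UMIs each, 32.0% had a Notch1 UMI and 0.583% a Notch4 UMI, and unthinned the shares were 57.3% and 1.43%. Thinning left out 105 lymphatic, 1117 capillary-like, 210 arterial-like and 10 high endothelial-like cells with fewer UMIs.

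The ligands took 3 different courses. Dll4, the Notch ligand of arteries and tip cells, had 240, 297 and 401 CPM in arterial-like pools and 139, 171 and 181 CPM in capillary-like pools, and the step down to lymphatic pools (45.1, 73.9 and 91.3 CPM) was also without overlap. Jag2 fell more steeply from arterial-like (274, 359 and 538 CPM) to capillary-like pools (93.3, 106 and 111 CPM). Its medians were 22.4 CPM in venous-like, 15.3 CPM in lymphatic and 7.29 CPM in high endothelial-like pools. Jag1, a ligand that can oppose Dll4 in sprouting vessels, was the one ligand that was low in capillary-like pools (14.9, 24.9 and 35.4 CPM). Its second level was in lymphatic pools (48.3, 97.5 and 142 CPM), whose range lay within reach of the arterial-like pools (59.98, 138 and 199.6 CPM). So Jag1 separated arterial-like from capillary-like cells and lymphatic from capillary-like cells, but not arterial-like from lymphatic cells beyond their spread.

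The targets also split. Hey1, a transcription factor that acts below Notch in arteries, had 120, 186 and 297 CPM in arterial-like pools and 40.2, 61.1 and 116 CPM in capillary-like pools, and no pool of another endothelial subset exceeded 29.1 CPM. Its medians there were 3.09 CPM in venous-like, 3.03 CPM in lymphatic and 1.22 CPM in high endothelial-like pools. Hes1, a repressor that many signals besides Notch also induce, was less confined: it had 509, 594 and 842 CPM in arterial-like, 358, 408 and 501 CPM in lymphatic and 345, 407 and 560 CPM in capillary-like pools. Venous-like pools had a Hes1 median of 243 CPM and high endothelial-like pools 128 CPM. In lymphatic cells, then, Hes1 stood at the capillary level while Hey1 was far below it, at 3.03 against 61.1 CPM. Of thinned cells, 43.2% of lymphatic and 41.0% of capillary-like cells had a Hes1 UMI, against 0.555% and 9.17% for Hey1 (unthinned, 62.8% and 51.2% against 1.62% and 12.7%).

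Efnb2 had 340, 447 and 542 CPM in arterial-like pools, above its pool's lymphatic cells in 8 of 8 pools by a median ratio of 1.98. Lymphatic pools (160, 226 and 345 CPM) overlapped both arterial-like and capillary-like pools (154, 195 and 220 CPM). Venous-like pools had a median of 37.9 CPM and high endothelial-like pools 11.4 CPM, so the fall from capillary-like to high endothelial-like cells was far larger than that from arterial-like to capillary-like cells.

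The connexins differed in how confined they were to arterial-like cells. Gja5 had 66.8, 160 and 192 CPM in arterial-like pools and 1.34, 3.75 and 5.74 CPM in capillary-like pools, a median ratio within pools of 44.1. Over all pools it gave 1 UMI in high endothelial-like, 2 in venous-like and 4 in lymphatic cells, of 3932700, 615963 and 20062614 gene UMIs. In thinned cells Gja5 was detected in 22.3% of arterial-like cells (exact binomial 95% interval 18.2 to 26.8%, counting error only) and 0.664% of capillary-like cells, and in 0 of 462 high endothelial-like cells, which allows up to 0.649% of cells with a UMI at that depth and sets no limit on cells that express the gene. Unthinned, the arterial-like share was 23.8% at a median of 2316.5 UMIs per cell. Gja4 had 318, 444 and 746 CPM in arterial-like pools and was not confined to them: lymphatic pools had 102, 163 and 323 CPM and capillary-like pools 66.1, 86.6 and 141 CPM. High endothelial-like and venous-like pools had Gja4 medians of 9.09 and 0 CPM. Stromal cells that passed the sort (121 cells) also carried Gja4, at a median of 220.5 CPM, and Hes1, at 626 CPM.

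High endothelial-like cells, the cuboidal venules through which lymphocytes enter the node, held the lowest median of Notch1, Jag1, Jag2, Hey1, Hes1 and Efnb2 among the 5 subsets. How much of what remained came from free RNA was gauged with the 73 cells of the 2 blood-cell clusters. Over these cells Notch1 stood at 49.97 CPM and Hes1 at 99.9 CPM, against 90.8 and 139 CPM in high endothelial-like cells summed over pools. For Dll4 the values were 44.0 and 50.9 CPM, for Notch4 15.99 and 14.2 CPM, and for Efnb2 19.99 and 9.15 CPM. The Notch1 level of high endothelial-like cells was above the blood cells' counting interval (32.3 to 73.8 CPM), as were 7 of their 8 pools. For Hes1 the summed level was above the interval (74.2 to 132 CPM), but 181 of its 546 UMIs came from the Xbp1-KO mesenteric pool of library 2, at 214 CPM, and 5 of the 8 pools, at 99.96 to 129 CPM, lay within it, so Hes1 is not read either way. The levels of the other 8 genes were within or below their intervals, so no expression in high endothelial-like cells is read from them. For 4 of them the blood-cell level itself draws heavily on 1 small pool: 10 of the 22 Dll4 UMIs and 4 of the 8 Notch4 UMIs came from a pool of 3 cells, and both Hey1 UMIs and 4 of the 8 Jag2 UMIs from a pool of 5 cells, all Xbp1-KO cells of library 2. At 2000 UMIs per cell, 18.6% of high endothelial-like and 6.45% of blood cells had a Notch1 UMI, from medians of 7613.5 and 4729 UMIs. The blood-cell clusters carry Glycam1 at 36510 CPM, so they hold endothelial RNA themselves.

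The lymphatic clusters differed from one another in these genes. The cluster led by Ackr4, a chemokine scavenger of the ceiling of the subcapsular sinus, and Gdf10 (1011 cells), and that led by Igfbp5 and Nts (522 cells) were high in Efnb2, with medians of 427 and 327 CPM, and in Gja4, with 280 and 257 CPM. The clusters led by Ptx3 and Mrc1 (364 cells) and by Marco and Lyve1 (535 cells) were low in Gja4, with 24.4 and 35.5 CPM, and in Efnb2, with 72.4 and 109 CPM. For Gja4 and Efnb2, no pool of the low clusters reached the lowest pool of the Ackr4 cluster. The cluster led by Ccl20 and Coch, genes of the sinus floor (1278 cells), had the highest Dll4 median (118 CPM) and the lowest Notch1 median (94.8 CPM). Hes1 was highest in the Igfbp5 and Nts cluster (649 CPM) and lowest in the Marco and Lyve1 cluster (153 CPM). Jag1 was highest in the Ackr4 cluster (147 CPM) and the Ptx3 cluster (124 CPM). The 10 genes were kept out of the clustering, so these levels did not define the clusters, but the differences were not tested. Medians are over 8 pools, or 7 for the Ptx3 cluster.

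**Figure D2:**
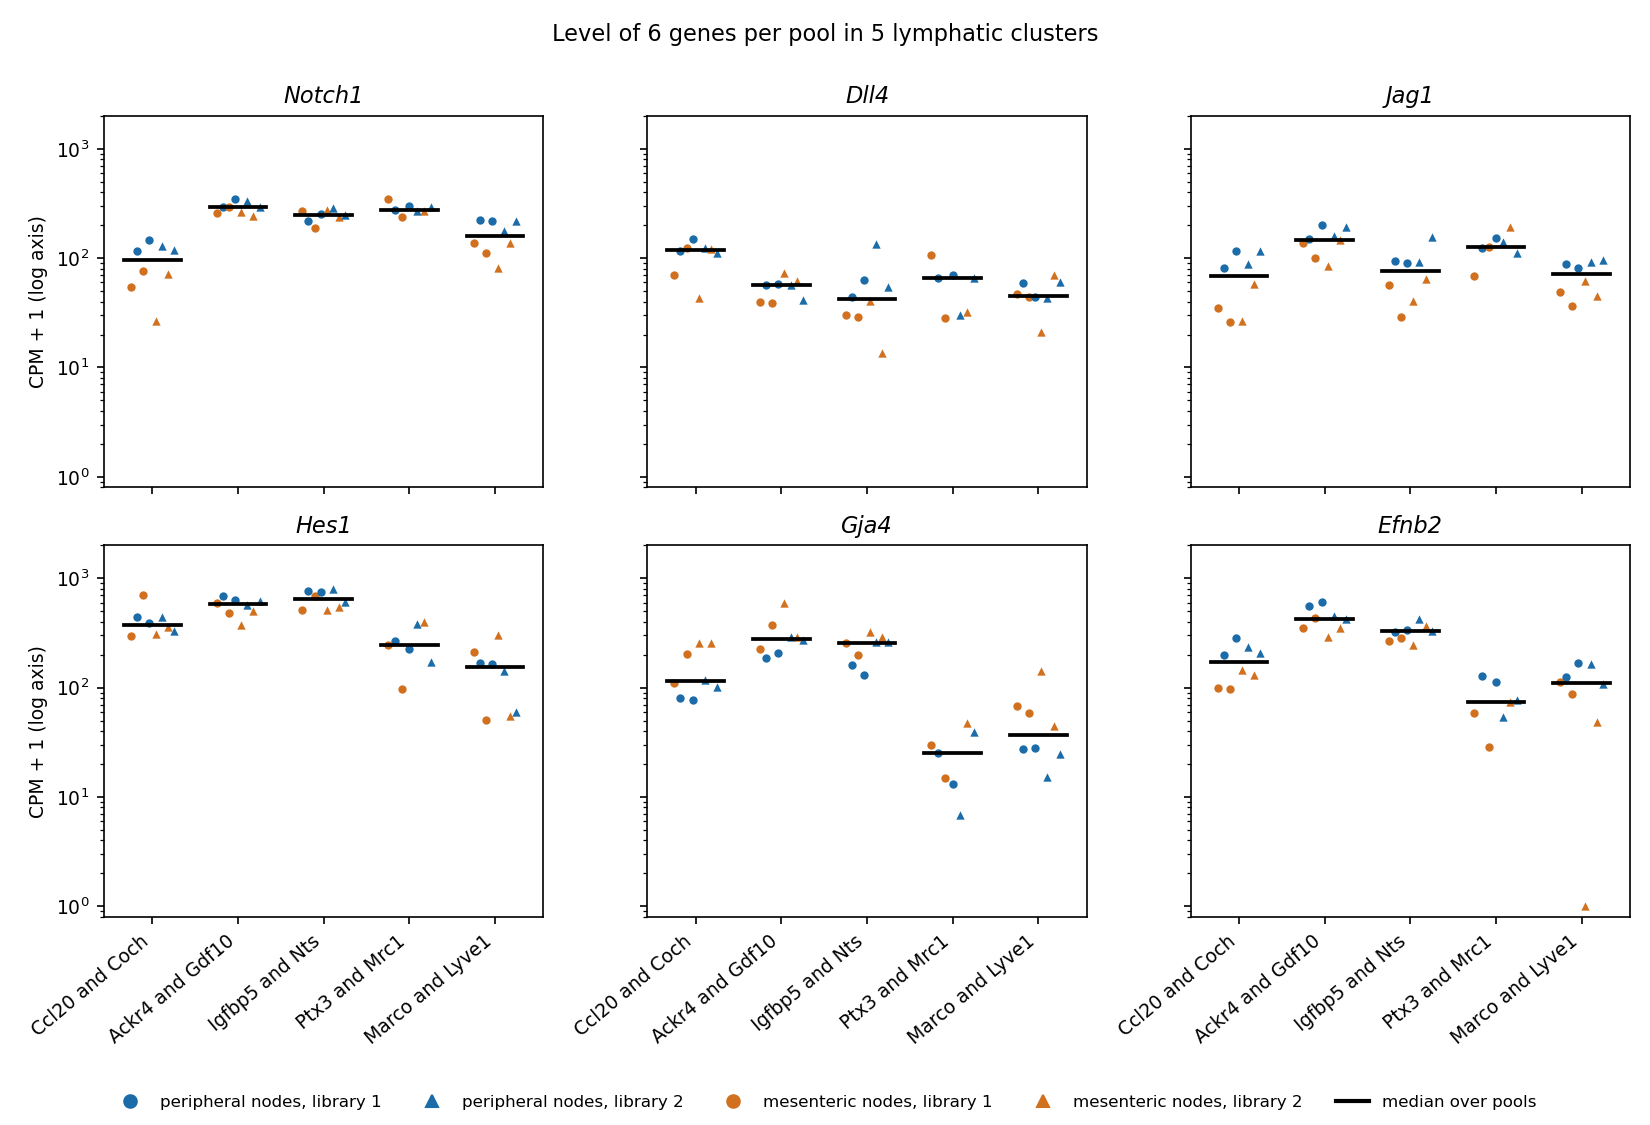
The level of Notch1, Dll4, Jag1, Hes1, Gja4 and Efnb2 (CPM + 1, log axis) in the 5 lymphatic clusters, each named by its 2 leading genes, 1 point per pool with the median as a bar. Gja4 and Efnb2 are low in the clusters of Ptx3 and Marco, and Notch1 is lowest in the cluster of Ccl20 and Coch (median 94.8 CPM).

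Among the capillary-like clusters, Gja4 medians ran from 11.4 CPM in the Fabp4 and Aqp7 cluster (500 cells) to 125 CPM in the Igfbp3 and Aqp1 cluster (1174 cells). Dll4 was highest in the cluster led by Apln and Prnd (629 cells), where tip-cell genes lead, with a median of 214 CPM against 127 to 165 CPM in the other 4. Gja5 medians stayed at or under 5.34 CPM in all 5, so no capillary-like cluster approached the arterial-like level.

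Peripheral and mesenteric nodes drain skin and gut, and their lymphatic cells differed in 3 of the 10 genes. Notch1, Jag1 and Efnb2 rose in lymphatic cells of peripheral nodes, while Gja4 was lower there in each library and genotype. Of the 10656 genes tested in lymphatic cells 5.12% were called, 1.95% as higher and 3.17% as lower in peripheral nodes. Of the 7 members that passed the filter on low counts 3 were called, all higher. The median log2 difference of these 7 was 0.45, against 0.00 over all genes tested.

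For Jag1, WT lymphatic cells had 63.5 and 54.5 CPM in mesenteric and 106 and 126 CPM in peripheral nodes, in libraries 1 and 2. Xbp1-KO lymphatic cells had 48.3 and 89.0 CPM in mesenteric and 136 and 142 CPM in peripheral nodes. The tissues did not overlap, and the log2 difference was 0.84 ± 0.16 (SE; edgeR quasi-likelihood test, Benjamini-Hochberg adjusted p = 0.00755). Efnb2 had 179, 185, 160 and 176 CPM in mesenteric pools (WT, then Xbp1-KO, library 1 before 2) and 287, 323, 345 and 266 CPM in peripheral pools. These did not overlap either, with a log2 difference of 0.72 ± 0.12 (edgeR, adjusted p = 0.00429). In library 2 alone the difference of Efnb2 was 0.62 ± 0.22 and missed the threshold (edgeR, adjusted p = 0.126), and in library 1 alone it was 0.78 ± 0.10. Notch1 had 163, 173, 146 and 155 CPM in mesenteric and 209, 257, 238 and 219 CPM in peripheral pools, in the same order. All 4 peripheral pools were above all 4 mesenteric ones, with a log2 difference of 0.45 ± 0.12 (edgeR, adjusted p = 0.0444), which passed narrowly. With DESeq2 it was 0.45 ± 0.15 and missed the threshold (adjusted p = 0.0805). In library 2 alone it was 0.46 ± 0.22 and missed it too (edgeR, adjusted p = 0.419), and in library 1 alone it was 0.42 ± 0.10. The differences of both genes were thus of like size in the 2 libraries, with larger errors in library 2.

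Gja4 went the other way: 144, 323, 164.5 and 204 CPM in mesenteric and 102, 187, 103 and 161 CPM in peripheral lymphatic cells. The tissues overlapped, and library 2 was higher than library 1 in each of the 4 groups. Within a library and genotype the peripheral pool was lower in 4 of 4 pairs. The log2 difference was -0.65 ± 0.24 (edgeR, adjusted p = 0.152) and, with the library as a block, -0.64 ± 0.11 (edgeR, adjusted p = 0.000349). The block also brought Jag2 past the threshold in lymphatic cells, with a log2 difference of 0.81 ± 0.26 (edgeR, adjusted p = 0.0448), at levels of 4.74 to 17.3 CPM in mesenteric and 13.4 to 24.7 CPM in peripheral pools. Blood cells gave Jag2 at 15.99 CPM (counting interval 6.90 to 31.5 CPM), which spans most of these levels, and the part of free RNA in the call was not tested. In library 1 alone the Jag2 difference was 0.46 ± 0.30 and in library 2 alone 0.99 ± 0.43. In the blocked fit, which called 5 of the 7, 13.3% of all genes were called, 5.05% as higher and 8.21% as lower in peripheral nodes. Dll4 (0.29 ± 0.13) and Hes1 (0.17 ± 0.11) did not pass in either fit.

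**Figure D3:**
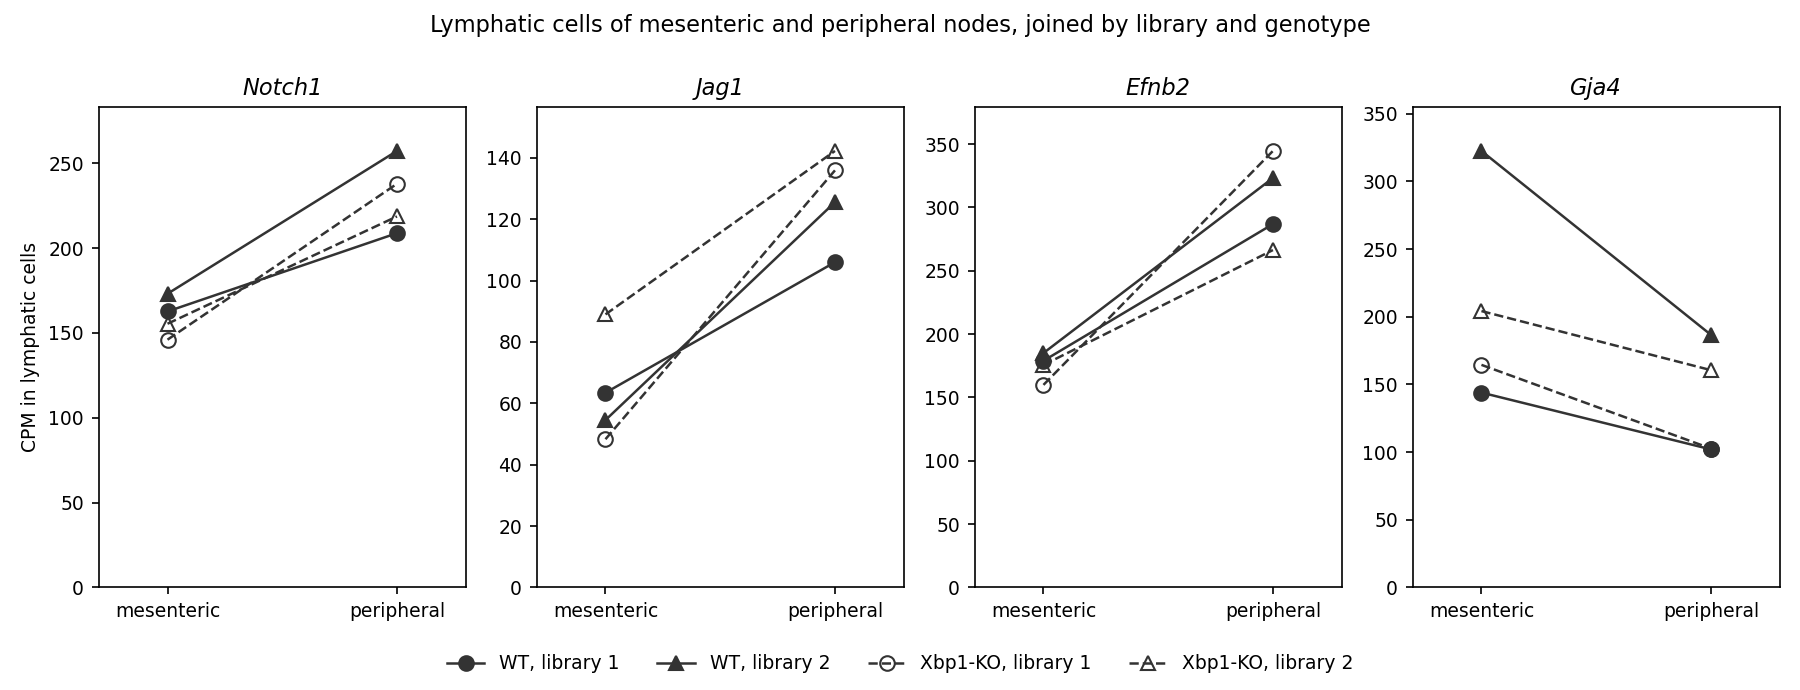
The level (CPM, axis from 0) of Notch1, Jag1, Efnb2 and Gja4 in lymphatic cells, with a line from the mesenteric to the peripheral pool of each library and genotype. All 4 lines rise for Notch1, Jag1 and Efnb2, and all 4 fall for Gja4, where the library 2 lines lie above those of library 1.

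The lymphatic clusters were mixed differently in the 2 kinds of node. The Ackr4 and Gdf10 cluster, with the highest median of Efnb2, Jag1, Notch1 and Gja4 among the 5 lymphatic clusters, made up 27.2 to 41.7% of the lymphatic cells of peripheral pools and 14.8 to 21.6% of those of mesenteric pools. The Gja4 median was 280 CPM in that cluster and 24.4 to 257 CPM in the others, while over all lymphatic cells Gja4 was lower in peripheral nodes without passing (-0.65 ± 0.24, edgeR, adjusted p = 0.152). Fits within single clusters, added after the data were seen, gave the following. In the Ccl20 and Coch cluster, where 14.1% of the 8549 genes tested were called, Notch1 (0.90 ± 0.18), Jag1 (1.14 ± 0.21) and Efnb2 (0.84 ± 0.17) rose and Gja4 fell by 1.22 ± 0.19 on the log2 scale (edgeR, adjusted p = 7.33e-05 to 0.00124). In the Marco and Lyve1 cluster, with 4.94% of genes called, Notch1 (0.75 ± 0.19) and Jag1 (0.94 ± 0.25) rose, Gja4 fell by 1.31 ± 0.31, and Efnb2 (0.82 ± 0.26) missed the threshold (edgeR, adjusted p = 0.0741). In the Ackr4 and Gdf10 cluster none of the 7 members tested was called, where 2.02% of genes were, with log2 differences of 0.22 ± 0.16 for Notch1, 0.37 ± 0.18 for Jag1, 0.47 ± 0.17 for Efnb2 and -0.55 ± 0.22 for Gja4 (edgeR, adjusted p = 0.152 to 0.555). The blocked fit called Efnb2 there (0.48 ± 0.14, edgeR, adjusted p = 0.0402, with 4.37% of genes called). In the Igfbp5 and Nts cluster, with 0.626% of genes called, none of the 6 members tested was called. The member nearest the threshold was Jag1, at 1.105 ± 0.309 (edgeR, adjusted p = 0.135). The Ptx3 and Mrc1 cluster (364 cells) was not fitted for either comparison, because its WT mesenteric pool of library 2 held 3 cells. Whether clusters differ in these effects, and what part the mixture of clusters has in the differences over all lymphatic cells, was not tested.

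The labels describe the digestion of peripheral nodes only, and genes of the dissociation response were compared beside this result. All 14 of that list were detected in each pool, and their summed level was 23725 to 25272 CPM in peripheral and 14197 to 27647 CPM in mesenteric lymphatic cells, ranges that overlapped. The 9 stromal markers, of cells that carry Gja4 and Hes1, summed to 165 to 218 CPM in peripheral and 154 to 296 CPM in mesenteric lymphatic cells, with 5 to 9 and 4 to 7 of them detected. The part of either in the result was not tested.

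In arterial-like cells none of the 10 genes was called between the nodes, where 0.0497% of the 4025 genes tested were. The difference nearest the threshold was that of Jag2, with 345, 301, 275 and 274 CPM in mesenteric and 538, 374, 420 and 383 CPM in peripheral pools. The peripheral pools all lay above the mesenteric ones, but the log2 difference of 0.51 ± 0.19 did not pass (edgeR, unadjusted p = 0.0144, adjusted p = 0.842). Efnb2 had 363, 359, 340 and 428 CPM in mesenteric and 493, 494, 466 and 542 CPM in peripheral arterial-like pools, again without overlap, at 0.39 ± 0.18 (edgeR, unadjusted p = 0.0426, adjusted p = 0.9996). Arterial-like sums held 25 to 147 cells, which limits what can be detected in them. DESeq2 also called none of the 10 there.

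In capillary-like cells none of the 9 members tested was called between the nodes (all but Gja5 passed the filter), where 1.22% of 9701 genes were. With the library as a block, where 4.92% of genes were called and 2.21% as lower in peripheral nodes, Hey1 fell there, at -0.50 ± 0.14 (edgeR, adjusted p = 0.0448), with pool levels of 40.2 to 62.0 CPM against 54.5 to 116 CPM in mesenteric nodes. The capillary-like clusters were mixed very differently: the Hspa1a and Hspb1 cluster, led by heat-shock genes and with the highest Hey1 median of the 5 (74.5 CPM), made up 34.6 to 70.6% of mesenteric and 6.03 to 13.2% of peripheral capillary-like cells. Fits within the 5 clusters called none of the members for tissue, where 1.23% (Hspa1a), 1.17% (Apln), 0.785% (Penk), 0.723% (Igfbp3) and 0.0514% (Fabp4) of all genes were called, nor for genotype, where the shares were 0, 0.0716, 0.0357, 0.0201 and 0% in the same order. In high endothelial-like cells none of the 6 members tested was called, where 0.374% of 6143 genes were. Their log2 differences ran from -0.53 to 1.46, and sums of peripheral pools held as few as 10 cells. Venous-like cells were not tested, because in 2 of the 4 groups 1 of the 2 pools held fewer than 5 cells.

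The study deleted Xbp1, the transcription factor of the unfolded protein response. Its loss moved none of the 10 genes past the threshold in any subset as a whole. Hes1 alone passed within 1 of the 4 lymphatic clusters fitted, and the blocked fit did not call it there. The labels do not say which exons are deleted. Xbp1 itself stood at 56.9 to 122 CPM in WT and 47.4 to 54.1 CPM in Xbp1-KO lymphatic pools, a log2 difference of -1.05 ± 0.16 (edgeR, adjusted p = 0.137, and 0.000807 with the library as a block). In capillary-like cells the genotypes did not overlap either, at 171 to 260 CPM in WT and 88.4 to 125 CPM in Xbp1-KO pools. They overlapped in arterial-like cells (93.5 to 201 against 70.1 to 154 CPM) and in high endothelial-like cells (257 to 505 against 208 to 333 CPM). In arterial-like cells of peripheral nodes in library 2 the Xbp1-KO pool, at 99.1 CPM, was not below the WT pool at 93.5 CPM. In lymphatic cells the targeted gene missed the threshold in the unblocked fit of these 8 sums and passed it in the blocked one. Of all genes, 0% were called for genotype in each of the 4 subsets, and with the block 0.0248% in arterial-like, 0.175% in capillary-like, 0% in high endothelial-like and 0.835% in lymphatic cells. Of the 32 tests of members (10 in arterial-like, 9 in capillary-like, 6 in high endothelial-like and 7 in lymphatic cells), 0 passed. With edgeR or DESeq2 0 had an unadjusted p under 0.05, and 5 had one in the blocked edgeR fit without passing. The share of all genes with an unadjusted p under 0.05 is not given here, so these 5 are not read as a result about the members.

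In arterial-like cells the log2 differences between Xbp1-KO and WT ran from -0.23 for Jag2 (SE 0.19) to 0.27 for Hey1 (SE 0.25). Jag2 had 345, 301, 538 and 374 CPM in WT pools and 275, 274, 420 and 383 CPM in Xbp1-KO pools, which overlapped. Hey1 ranged over 120 to 263 CPM in WT and 156 to 297 CPM in Xbp1-KO pools. Both values moved in fits of 1 library alone, a different model in which genotype and sex also run together. In libraries 1 and 2 alone they were -0.35 and -0.05 for Jag2 and -0.05 and 0.31 for Hey1. In capillary-like cells the largest difference was that of Notch4, at -0.28 ± 0.14, and in lymphatic cells that of Jag2, at 0.54 ± 0.28 on levels under 25 CPM. These moved too, to -0.15 and -0.39 for Notch4 and 0.55 and -0.13 for Jag2 in libraries 1 and 2 alone. Dll4 in lymphatic cells was 0.28 ± 0.13 higher without passing (edgeR, adjusted p = 0.823, with that of Jag2 the lowest of the 32). In high endothelial-like cells, the node cells the series title names, the 6 members tested ran from -0.57 to 0.62. Of these, Notch1 (0.37 ± 0.29) and Hes1 (0.46 ± 0.26) had wide errors. Their values in libraries 1 and 2 alone were 0.44 and 0.09 for Notch1 and 0.39 and 0.75 for Hes1. In lymphatic cells Xbp1 itself missed the threshold in the same fit, so a miss there sets no bound on the size of a member's difference.

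**Figure D4:**
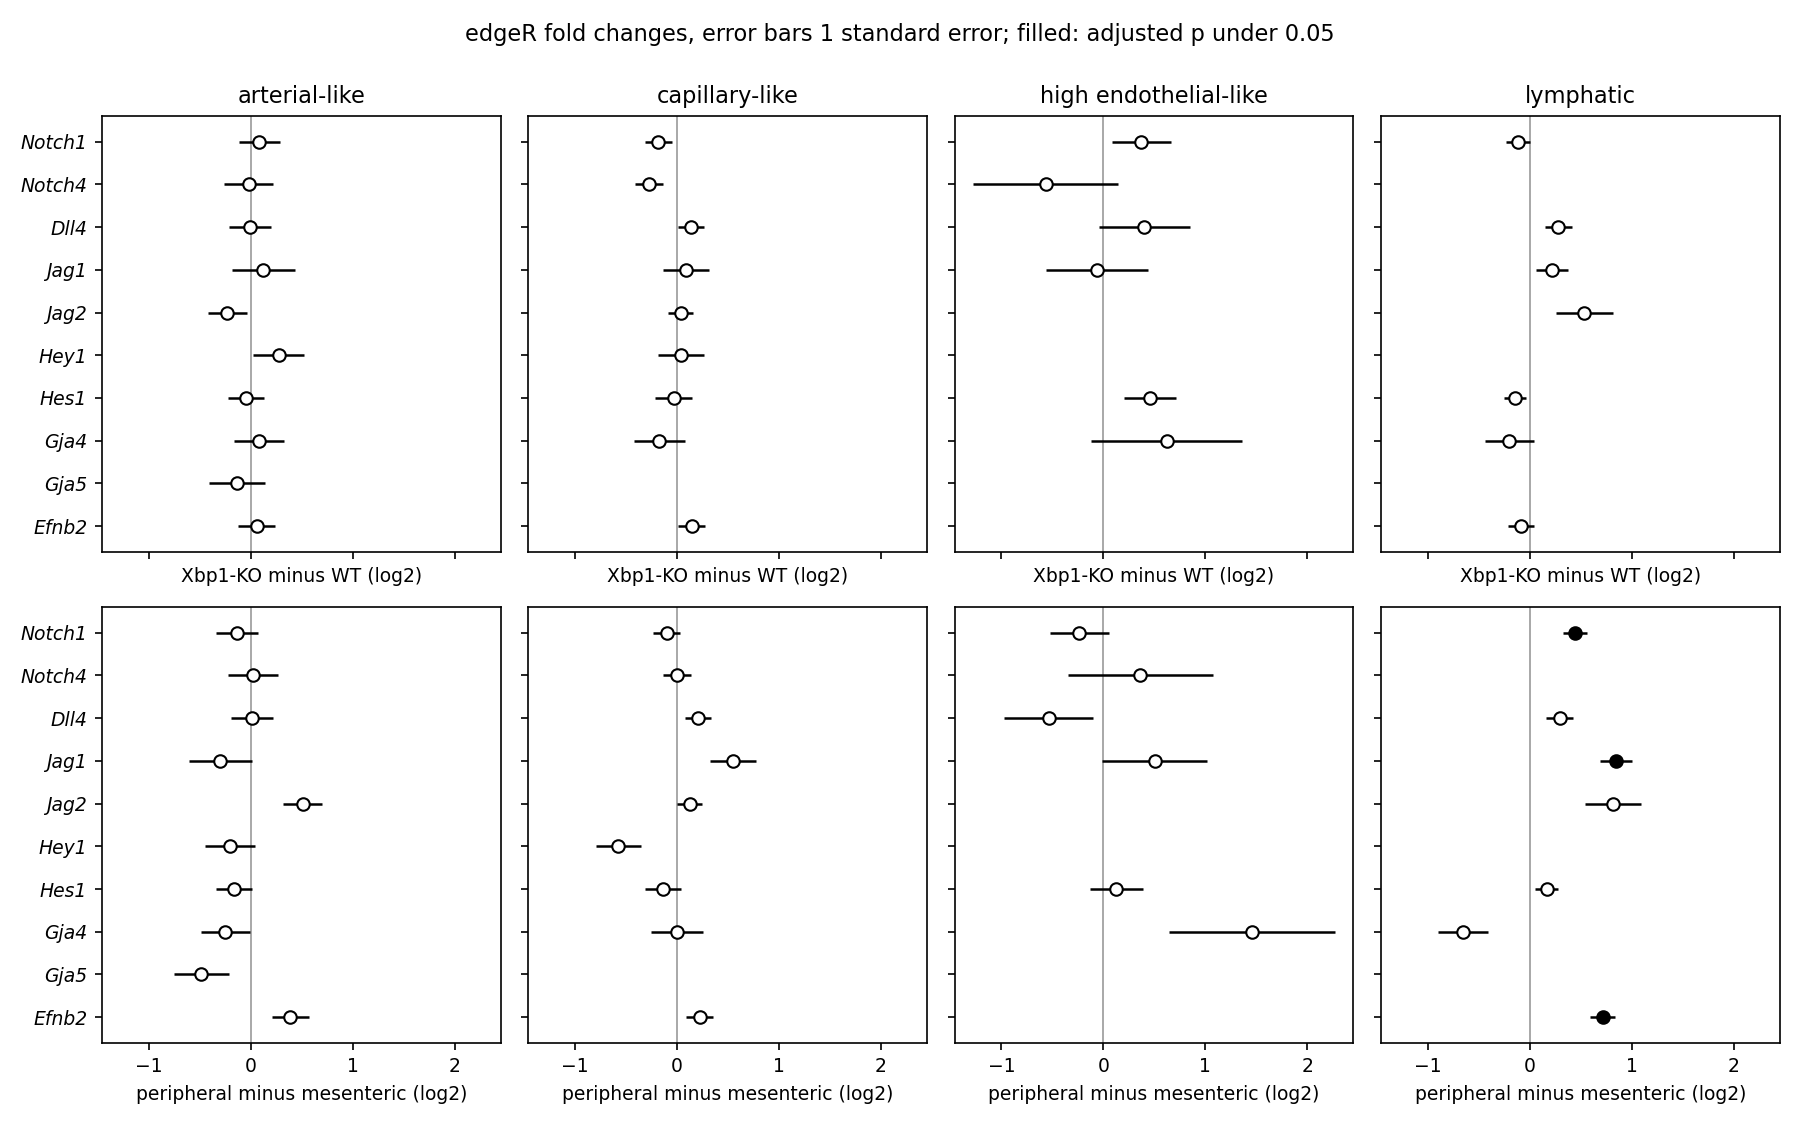
Log2 differences of the members from edgeR in 4 subsets, Xbp1-KO minus WT in the upper row and peripheral minus mesenteric in the lower row, with bars of 1 standard error; filled points passed the adjusted p of 0.05, and genes that failed the filter on low counts have no point. The only filled points are Notch1, Jag1 and Efnb2 in lymphatic cells, peripheral against mesenteric.

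Within the 4 lymphatic clusters that were fitted, in fits added after the data were seen, 1 member was called for genotype: Hes1 fell in Xbp1-KO cells of the Marco and Lyve1 cluster. The WT pools had 209, 303, 168 and 142 CPM and the Xbp1-KO pools 49.9, 54.5, 165 and 59.4 CPM (mesenteric before peripheral, library 1 before 2), which overlapped in 1 Xbp1-KO pool, that of peripheral nodes in library 1. The log2 difference was -1.16 ± 0.23 (edgeR, adjusted p = 0.0375, with 0.157% of 5734 genes called) and -1.13 ± 0.24 with the library as a block (edgeR, adjusted p = 0.0753, with 0.0872% called). In the clusters of Ccl20, Ackr4 and Igfbp5, where 0.246, 0.0128 and 0% of genes were called, no member was. The WT mesenteric pool of library 2 held 6 cells of this cluster. Over all lymphatic cells the difference was -0.14 ± 0.11 (edgeR, adjusted p = 0.876).

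The effect of genotype did not differ between peripheral and mesenteric nodes past the threshold for any member, and of the 32 tests 1 had an unadjusted p under 0.05 (0 with DESeq2). This was Jag1 in arterial-like cells, with 183 and 80.2 CPM in WT and 59.98 and 132 CPM in Xbp1-KO peripheral pools, against 71.0 and 143.5 CPM in WT and 199.6 and 183 CPM in Xbp1-KO mesenteric pools. The libraries disagreed in direction within peripheral nodes, and the difference of -1.61 ± 0.62 did not pass (edgeR, unadjusted p = 0.0181, adjusted p = 0.999). Between 0 and 0.0745% of all genes were called for this difference at the adjusted threshold. The share of all genes with an unadjusted p under 0.05 is not given here.

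Gja4 was higher in library 2 than in library 1 in 3 subsets. In arterial-like cells it had 318 to 448 CPM in the 4 pools of library 1 and 441 to 746 CPM in those of library 2, a log2 difference of 0.69 ± 0.14 (edgeR with genotype and tissue in the fit, adjusted p = 0.00163), where 6.53% of genes were called. In capillary-like cells the difference was 0.75 ± 0.09 (edgeR, adjusted p = 0.000112, 13.4% of genes called) and in lymphatic cells 0.76 ± 0.11 (edgeR, adjusted p = 0.000204, 3.56% called). It was higher in library 2 in each of the 4 pools of each of these subsets. Hey1 (0.54 ± 0.14) rose and Hes1 (-0.37 ± 0.10) fell in library 2 in capillary-like cells (edgeR, adjusted p = 0.0174 and 0.0173). Gja5, the other connexin, differed by 0.02 ± 0.23 in arterial-like cells. The 14 genes of the dissociation response summed to 21708 to 27063 CPM in library 1 and 30315 to 49709 CPM in library 2 in arterial-like cells, and their part in the difference was not tested. In high endothelial-like cells none of the 6 members was called, with 0.96% of genes called.

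The other genes of these pathways were taken as a list of 45 besides the members: further ligands and receptors, enzymes that modify and cut them, nuclear partners, targets, ephrins, Eph receptors and vascular connexins. For genotype none of those tested was called (22 of 45 in arterial-like, 37 in capillary-like, 27 in high endothelial-like and 36 in lymphatic cells), with edgeR both without and with the block. Between the nodes, 1 of 36 rose in lymphatic cells of peripheral nodes and 0 fell: Epha2, an Eph receptor, at 0.71 ± 0.18 (edgeR, adjusted p = 0.0331). The median over the 36 was 0.01, against 0.45 for the 7 members and 0.00 for all genes. Of all genes, 5.12% were called in that fit. The blocked fit, which called 13.3% of all genes, called 3 of the 36, adding Mib1 (0.36 ± 0.11), a ligase that lets Notch ligands be taken up, as higher and Mfng (-1.41 ± 0.42), a glycosyltransferase of Notch receptors, as lower in peripheral nodes (edgeR, adjusted p = 0.0294 and 0.0292). In capillary-like cells, where it called 4.92% of all genes and 2.21% as lower, it called 2 of 37 as higher, Hey2 (2.14 ± 0.47) and Dll1 (0.68 ± 0.17), and 4 as lower, Neurl1b (-0.72 ± 0.15), Epha4 (-0.69 ± 0.16), the Notch target Nrarp (-0.58 ± 0.12) and Ephb4 (-0.42 ± 0.09), where the unblocked fit called none (edgeR, adjusted p = 0.00986 to 0.0359 with the block). The cell mixture given above for Hey1 moves with these too, and its part was not tested. Of the 2 other receptor genes, named after their values were seen, Notch2 had a median of 68.1 CPM in lymphatic pools and medians of at most 2.68 CPM in the blood endothelial subsets, and Notch3 had a median of 605 CPM in stromal cells and of at most 1.32 CPM in the endothelial subsets.

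To place the members among all genes, each was correlated over the 38 sums of the 5 subsets (12308 genes with at least 50 UMIs, log2(CPM + 1)), as a description: the sums share libraries and depth, and they come from 5 different subsets. Gja5 was nearest to Rgs10 (Pearson r = 0.96), Nebl (0.96) and Col8a1 (0.96). Jag2 was nearest to Eogt (0.93), Sema3g (0.90) and Igfbp3 (0.89), and Hey1 to Rasgrp3 (0.94), Crispld1 (0.92) and Cxcr4 (0.90). For Notch1 the list was Rasgrf2 (0.92), Tns1 (0.92) and Akap12 (0.91), for Notch4 Id3 (0.92), Mast4 (0.91) and Arhgap31 (0.90), and for Gja4 Tgfb2 (0.89), Unc5b (0.88) and Prkcd (0.87). Dll4 was nearest to Nadk (0.88), Itpr3 (0.88) and Vps45 (0.87), and Efnb2 to Pmp22 (0.91), Fzd6 (0.89) and Cdh13 (0.89). Hes1 was the only gene with another member among its 3 nearest: Timp3 (0.90), Notch1 (0.89) and Gpr160 (0.88). Jag1 had the weakest ties, with Agrn (0.76), Nsd3 (0.75) and Zcchc14 (0.74), and r = -0.06 with Notch4, the lowest of the 45 pairs of members.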

How the data were processed

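Gene transcripts of single cells were counted in 2 libraries of 4 hashtagged pools each. The matrices deposited by the authors hold whole-number counts of UMIs (unique molecular identifiers) for each gene and barcode. They come from Cell Ranger, version 6.0.1 per the file headers and 6.1 per the submitters' processing notes, against mm10, and the labels differ on the version of the 3' kit. Whether intronic reads were counted is not given in the sources used here. Library 1 held 33024170 gene UMIs in 7709 barcodes (median 3655) and library 2 14744778 in 2903 (median 4319).

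Hashtags were called with HTODemux (Seurat 5.3.0, quantile 0.99): 6786 and 2690 barcodes had a single tag, 685 and 130 several and 238 and 83 none. Barcodes with 1 tag, 500 or more genes and mitochondrial UMIs of no more than 10% went on, and scrublet in scanpy 1.11.5 removed 53 and 5 of them. Cells were clustered (1984 variable genes without the members, their pathway list and Xbp1; 30 components, 15 neighbours, Leiden resolution 1, igraph 0.11.9) and named from marker lists, lymphatic clusters by Prox1 in at least 25% of cells.

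Counts were summed per library, pool and subset (sums of at least 5 cells) and tested with edgeR 4.0.16 (TMM, filterByExpr, quasi-likelihood) across all genes, with Benjamini-Hochberg adjustment and a threshold of 0.05. The reported fits had no block. Pools of 1 library were captured together, per the labels, so the fit with the library as a replicate block is printed where it changes a call. DESeq2 1.42.0 was run beside it. Fits of 1 library alone held 1 pool per group and took genotype and tissue as additive terms, unlike the reported fits on group means. The genotype fit was also run on counts simulated from its own dispersions, without differences between libraries or tissues. No conclusion is drawn from that run. The lymphatic sums held 421632 to 6538775 UMIs and the arterial-like sums 74847 to 380191. Intervals and limits cover counting error only, at 95%, and 3 counts set the limit for a count of 0.

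The members and lists were chosen with earlier results of these data known. All 10 members are named in every subset where tested. Other genes are named where a pathway gene passed the threshold or was among the 3 most like a member. Notch2 and Notch3 were added after their values were seen. Gene positions are from GENCODE M21, and 8 of 10 members matched the RefSeq promoter table.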

Additional observations from a re-analysis of the deposited data

How the results depend on the processing

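In lymphatic cells of peripheral against mesenteric nodes, 3 members were called as reported and 5 with the library as a replicate block. The shares of all genes called were 5.12% and 13.3%. Without a filter on low counts 5 were called, and 2 with DESeq2 or the ratio rule for hashtags. The shares of all genes are not given for these settings, so their counts are not read as results about the members. With sums thinned to the smallest 0 were called, where 0 of 7952 genes were called at all. With 1 library left out each group keeps 1 pool, so sizes alone are given for the nodes. Without library 1 the differences of Notch1 and Efnb2 kept their direction, at 0.46 and 0.62. In capillary-like cells the block raised the count for the tissues from 0 to 1 (Hey1), and it changed no count in arterial-like or high endothelial-like cells. For genotype and for its difference between tissues, the counts of members called stayed at 0 in each alternative run on whole subsets; the difference between tissues was not run without a library. Of 746 alternative values of members not called in the reported fits, 82 had the other sign, none of them called. All 10 members kept their highest median among the endothelial subsets in arterial-like cells in each of the 4 alternatives run on this order (the ratio rule, a Leiden resolution of 1.5, and without library 1 or 2). With 1 library left out the arterial-like medians ran from 305 to 413 CPM for Notch1, from 171 to 248 CPM for Hey1 and from 407 to 648 CPM for Gja4. The share of arterial-like cells with a UMI follows depth: thinned to 1000 UMIs it was 30.3% for Notch1, 13.5% for Notch4, 22.9% for Dll4, 9.40% for Jag1, 28.5% for Jag2, 16.1% for Hey1, 34.0% for Hes1, 33.8% for Gja4, 9.91% for Gja5 and 30.6% for Efnb2, and unthinned 52.7% for Notch1, 52.4% for Jag2 and 56.9% for Hes1. Depth limits the venous-like, arterial-like and peripheral high endothelial-like sums, and Notch4, Hey1 and Gja5 were too low in lymphatic cells to be tested.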
